A study of Mus musculus with 12 samples.

Results

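The genes of programmed cell death described here are 45 named genes of the apoptotic, necroptotic and pyroptotic machinery, taken by symbol from a count table of 39756 genes in mouse brain. They comprise 7 anti-apoptotic members of the BCL2 family, 3 pore-forming members, 8 BH3-only members, 6 genes of mitochondrial release and the apoptosome, 3 further caspases, 5 genes of the death receptor complex, 3 inhibitors of apoptosis, 2 necroptosis genes and 8 genes of the inflammasome and pyroptosis. All 45 were found in the table, and 44 carried enough reads to be tested. The remaining gene, Nlrc4, is described by its counts.

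In apoptosis, BH3-only proteins unleash BAX and BAK, which open the outer mitochondrial membrane, release cytochrome c and allow APAF1 and caspase-9 to activate the executioner caspases, while BCL2, BCL-XL, MCL1 and A1 hold this step back. Death receptors reach the same caspases through FADD and caspase-8, and where caspase-8 is blocked, RIPK1 engages RIPK3, which phosphorylates MLKL, and MLKL ruptures the plasma membrane in necroptosis. In pyroptosis, sensors such as NLRP3 and AIM2 assemble with the adaptor PYCARD and caspase-1, or caspase-11 (the product of Casp4 in the mouse) acts directly, and gasdermin D is cut to form plasma membrane pores. Neurons in an ischemic territory are known to die by several of these routes, and microglia and infiltrating leukocytes are rich in the inflammasome genes.

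The RNA was extracted from brain hemispheres of 12 male C57BL/6J mice bought at 9 to 10 weeks of age. Sham, Vehicle and LJP groups held 4 mice each, and the deposited values are raw read counts by gene. Sham mice underwent surgery without occlusion and received saline, Vehicle mice received saline and underwent transient occlusion of the left middle cerebral artery for 45 minutes (tMCAO, an intraluminal filament model of stroke with reperfusion), and LJP mice underwent the same occlusion. LJP, a sulfated polysaccharide of the brown alga Laminaria japonica, was given by gavage daily for 14 days before surgery and continued afterwards. The study tried 3 doses and took the middle one into its later experiments, while the labels name no dose for the sequenced mice, and their time of sampling is not given in the sources used here. No genetic modification is named, and all 12 mice carry the same batch label. Vehicle against Sham asks what ischemia did to these genes, LJP against Vehicle what the polysaccharide did after ischemia, and LJP against Sham what difference remained.

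Total counts were between 17960353 and 22216315 per mouse, 17558 genes were tested, and the tissue label was borne out by neuronal markers, of which all 8 were detected in every mouse. Vehicle mice 1 and 2 stood apart from Vehicle mice 3 and 4. The summed level of 7 neutrophil markers in counts per 1000000 of library size (CPM, here with TMM factors) was 207.1 and 77.9 in Vehicle mice 1 and 2 against 18.1 and 29.1 in Vehicle mice 3 and 4, with 5.01 to 6.58 in the Sham mice and 10.1 to 22.2 in the LJP mice. Ly6g, a defining neutrophil marker, had 3 and 4 counts in Vehicle mice 1 and 2, 1 count in LJP mouse 2 and 0 elsewhere. Outside Vehicle mice 1 and 2 most counts of this list were of 1 gene, Csf3r. It had 83 to 124 counts in the Sham mice and 186 to 474 in the LJP mice. A list of choroid plexus markers also divided the group, with 21.5 and 19.6 CPM in Vehicle mice 1 and 2 against 528.8 and 484.5 in Vehicle mice 3 and 4. Whether the sampled tissue differed was not tested. Results were also computed without Vehicle mice 1 and 2, as an alternative chosen after seeing the data. In bulk tissue fewer cells of a type and less RNA per cell cannot be told apart.

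The Bcl2a1 genes were among the members with the smallest p in Vehicle against Sham, and they are near-identical copies whose reads are hard to tell apart, so their sequences are shown first. Bcl2a1a (chr9:88956920-88962416, plus strand), Bcl2a1b (chr9:89199273-89207838, plus strand) and Bcl2a1d (chr9:88723288-88731850, minus strand) each encode A1, an anti-apoptotic BCL2 protein known from leukocytes. Positions are those of the deposited table, which match GRCm38. Their coding sequences in the GENCODE vM21 transcripts are 519 bases long. Bcl2a1a and Bcl2a1b differed at 11 bases (97.9% identity), Bcl2a1a and Bcl2a1d at 7 (98.7%), and Bcl2a1b and Bcl2a1d at 6 (98.8%). Of the 12 coding positions that vary among the copies, 7 lie in the first 120 coding bases, which follow with the varying bases in capitals.
Bcl2a1a: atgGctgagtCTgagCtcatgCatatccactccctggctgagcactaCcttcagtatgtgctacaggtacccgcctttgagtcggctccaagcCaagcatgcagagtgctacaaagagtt
Bcl2a1b: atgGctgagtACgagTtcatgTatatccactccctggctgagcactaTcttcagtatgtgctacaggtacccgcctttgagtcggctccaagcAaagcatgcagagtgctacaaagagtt
Bcl2a1d: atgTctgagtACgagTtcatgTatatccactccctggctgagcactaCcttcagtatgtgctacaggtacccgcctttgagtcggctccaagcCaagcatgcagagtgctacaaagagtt

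The longest run shared by Bcl2a1a and Bcl2a1d was 314 bases, longer than the fragments of these libraries, and how reads that match several genes were counted is not given in the sources used here. The split of reads among the copies is therefore uncertain, and their sum is given beside them.

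Promoters were read from the RefSeq table (GRCm38.p6), which held 41 of the 45 genes and lacked Gsdmd, Tradd, Pmaip1 and Bik. The 250 bases before the start site are shown for the Bcl2a1 copies, which all rose in Vehicle against Sham, for Pycard, whose window shares a motif with them, and for Casp4, which had the smallest p in the comparison of LJP with Vehicle. They lie at chr9:88956670-88956919 (Bcl2a1a), chr9:89199023-89199272 (Bcl2a1b), chr9:88731851-88732100 (Bcl2a1d, minus strand), chr7:127993868-127994117 (Pycard, minus strand) and chr9:5308599-5308848 (Casp4). Each runs 5′ to 3′ on the strand of its gene, with motif matches in capitals.
Bcl2a1a: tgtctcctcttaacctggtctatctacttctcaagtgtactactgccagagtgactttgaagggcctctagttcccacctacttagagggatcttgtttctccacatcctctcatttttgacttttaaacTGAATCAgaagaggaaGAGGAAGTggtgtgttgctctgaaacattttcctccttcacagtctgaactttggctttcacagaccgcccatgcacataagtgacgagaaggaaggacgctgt
Bcl2a1b: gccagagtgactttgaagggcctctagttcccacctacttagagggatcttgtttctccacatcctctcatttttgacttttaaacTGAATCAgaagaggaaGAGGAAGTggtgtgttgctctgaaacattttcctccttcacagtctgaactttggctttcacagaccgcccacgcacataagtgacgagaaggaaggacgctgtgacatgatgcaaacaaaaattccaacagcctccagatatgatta
Bcl2a1d: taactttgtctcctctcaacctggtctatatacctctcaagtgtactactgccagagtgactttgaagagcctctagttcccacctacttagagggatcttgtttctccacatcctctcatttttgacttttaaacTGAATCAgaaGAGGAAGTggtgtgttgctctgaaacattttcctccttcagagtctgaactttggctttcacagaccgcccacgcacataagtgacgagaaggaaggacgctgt
Pycard: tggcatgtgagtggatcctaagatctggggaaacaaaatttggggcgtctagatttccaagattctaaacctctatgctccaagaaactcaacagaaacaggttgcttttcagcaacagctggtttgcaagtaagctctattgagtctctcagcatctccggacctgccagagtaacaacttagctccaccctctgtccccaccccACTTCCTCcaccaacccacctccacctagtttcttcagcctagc
Casp4: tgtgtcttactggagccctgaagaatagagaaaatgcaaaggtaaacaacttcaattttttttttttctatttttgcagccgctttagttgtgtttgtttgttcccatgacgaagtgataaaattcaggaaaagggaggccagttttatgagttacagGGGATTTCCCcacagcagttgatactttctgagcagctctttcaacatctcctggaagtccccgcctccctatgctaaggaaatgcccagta

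Both strands were searched for 4 motifs. The core site of PU.1, a myeloid transcription factor, was spelled GAGGAAGT and was found in the windows of Aim2, Bad, Bak1, Bcl2a1a, Bcl2a1b, Bcl2a1d and Pycard, 7 of the 55 windows of the 41 genes, against 2.44% of all 32851 promoter windows in the table. An AP-1 site, spelled TGANTCA, was found in 3 of 55 windows, those of the Bcl2a1 copies, against 6.75% of all windows. It lay at bases -120 to -114 of Bcl2a1a, and the PU.1 core at -104 to -97. An NF-kB site, GGGA followed after 4 bases by CC, was found in 11 of 55 windows (10 genes, among them Casp4, Birc3, Nlrp3, Bbc3 and Bak1), a share close to the 17.6% of all windows. The interferon-stimulated response element, GAAA followed after 2 bases by GAAA, was found in 0 of 55 windows and in 2.98% of all windows. The Bcl2a1 windows are copies of each other (95.2% to 99.5% identity over 206 to 250 aligned bases) and hold their matches in common. A match shows letters in a window and no binding.

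Levels were compared between genes per kilobase of the length in the deposited table (RPKM from the scaled CPM). In Sham mice the most abundant members were Bok at 33.7 ± 2.72 RPKM, Bax at 30.8 ± 3.45, Bcl2l2 at 25.4 ± 0.516, Cycs at 24.5 ± 0.759 and Parp1 at 23.6 ± 0.662 (SD, n = 4 for each value here). The scarcest were Bcl2a1a and Bcl2a1d, both at 0.0344 RPKM, Bik at 0.0461 and Casp4 at 0.0553. The necroptosis genes were nearly as scarce, with Ripk3 at 0.0958 ± 0.0640 RPKM and Mlkl at 0.0923 ± 0.0223 RPKM. In Vehicle mice Bax led at 54.2 ± 15.2 RPKM, followed by Bok at 43.2 ± 5.59 and Mcl1 at 33.7 ± 14.1, whose SDs overlap. The LJP mice had Bok at 42.4 ± 4.49, Bax at 36.5 ± 4.34 and Parp1 at 24.2 ± 1.83, and Mcl1 at 19.1 ± 2.63 RPKM.

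**Figure D1:**
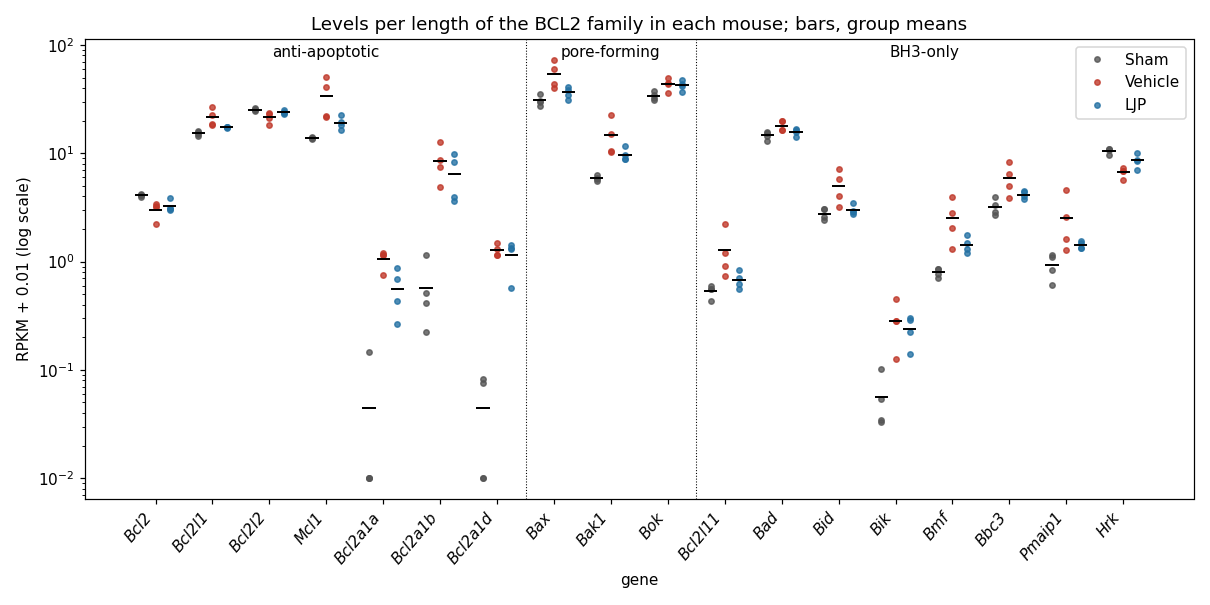
Level per length of 18 BCL2 family genes (RPKM plus 0.01, log axis) in each of 12 mice, by group, with bars at the group means. Bax, Bok, Bcl2l2, Bcl2l1 and Mcl1 lie in the upper range in every group, and the Sham points of Bcl2a1a, Bcl2a1b, Bcl2a1d and Bik lie below the Vehicle points.

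Most of these genes were higher after ischemia. In Vehicle against Sham mice 31 of 44 members rose, where 22.7% of all 17558 tested genes rose, and 5 fell, where 17.3% of all genes fell (edgeR's quasi-likelihood test, Benjamini-Hochberg adjusted p below 0.05), so that 36 passed against 39.9% of all genes in either direction. The median log2 fold change of the 44 members was 1.10, and that of all tested genes was 3.5e-05. Members whose 4 Vehicle values all lay above the 4 Sham values numbered 28, against 20.7% of all genes, and 5 lay wholly below, against 18.9%. At an unadjusted p below 0.05, 34 were higher (27.1% of all genes) and 5 lower (22.8%). DESeq2 called 30 higher, against 20.0% of all genes, and 5 lower, against 15.7%. The study's own thresholds were a log2 change beyond 0.58 in size with p below 0.01 before adjustment, used with DESeq2. Applied here to the edgeR values, they gave 27 higher, against 15.3%, and 1 lower, against 6.39%. Scaled by library size alone, without TMM factors, 34 were higher and 2 lower, against 40.1% of all genes in either direction, and the falls of Bcl2l2, Xiap and Cycs no longer passed. With both Vehicle mice 1 and 2 left out, 26 members passed, 23 higher and 3 lower, against 30.7% of all genes in either direction, and the median was 0.63. Of the 36 calls 10 were lost in that fit, and the log2 values of 11 of the 26 others moved by over 1.5 times. Microglial, macrophage and endothelial markers were also higher in the Vehicle mice (5 of 7, 6 of 6 tested and 5 of 6 rose) and 5 of 8 neuronal markers fell. Their part in the changes of the cell death genes was not tested.

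**Figure D2:**
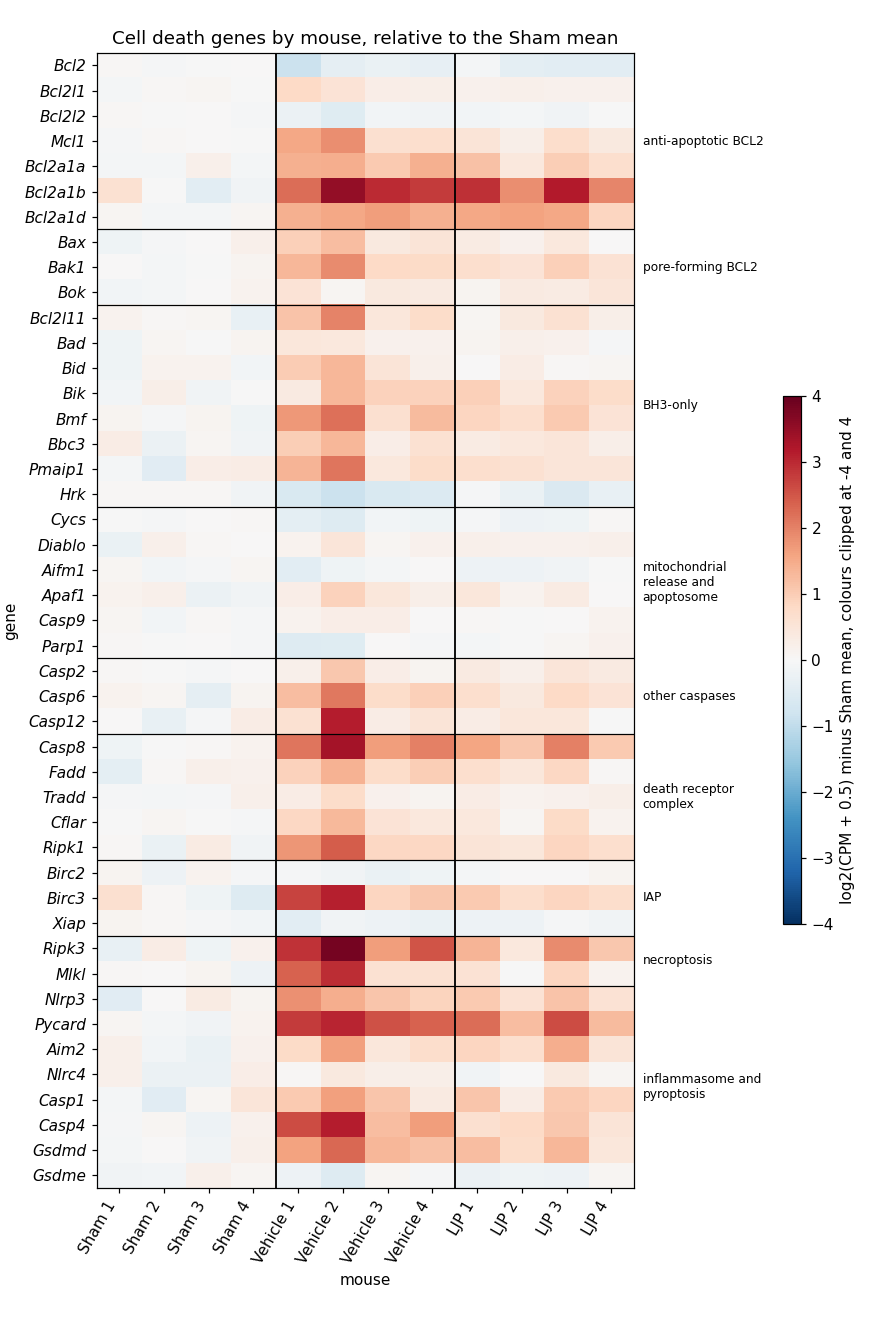
Level of each of the 45 genes (rows, by role) in each mouse (columns), as log2(CPM + 0.5) minus the Sham mean, with blue for lower and red for higher. Red dominates in the Vehicle columns and is deepest in Vehicle mouse 2, while Bcl2, Bcl2l2, Hrk, Cycs and Xiap are blue in most Vehicle mice.

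Among the anti-apoptotic BCL2 genes 5 of 7 rose and 2 fell. Bcl2a1b was read at 0.864, 0.381, 0.164 and 0.311 CPM in Sham mice 1 to 4, at 3.72, 9.74, 6.61 and 5.76 CPM in Vehicle mice 1 to 4 and at 6.31, 2.76, 7.50 and 3.01 CPM in LJP mice 1 to 4. Every Vehicle and LJP value lay above every Sham value, and the Vehicle and LJP values overlapped. Bcl2a1b rose by 3.90 ± 0.51 on the log2 scale from Sham to Vehicle (mean ± SE, adjusted p = 0.00025, edgeR). Bcl2a1d was read at 0.0576, 0, 0 and 0.0518 CPM in the Sham mice, at 0.906, 1.03, 1.18 and 0.915 in the Vehicle mice and at 1.04, 1.12, 1.03 and 0.445 in the LJP mice. The Sham values rest on 2 counts over 4 mice against 83 counts in the Vehicle mice, a ratio of 36.9 per read with an exact 95% counting interval of 9.89 to 309 (adjusted p = 0.000151, edgeR). Bcl2a1a had 2 counts in Sham mouse 3 and 0 in the others, 0.906, 0.944, 0.591 and 0.915 CPM in the Vehicle mice and 0.681, 0.204, 0.543 and 0.334 CPM in the LJP mice. For Bcl2a1a the Vehicle to Sham ratio was 31.1 per read with an interval of 8.29 to 262 (adjusted p = 0.000629, edgeR). Intervals of this kind cover counting error only. Summed over the 3 copies, the Sham mice had 0.274 to 0.922 CPM, Vehicle mice 1 to 4 had 5.53, 11.7, 8.39 and 7.59 CPM, and LJP mice 1 to 4 had 8.03, 4.08, 9.07 and 3.79 CPM. The sum does not depend on how reads were split among the copies, and its Vehicle and LJP ranges overlap.

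MCL1 is a short-lived guardian of mitochondria. Its gene Mcl1 was read at 71.0, 74.2, 73.0 and 72.2 CPM in Sham mice 1 to 4, at 215.3, 264.1, 114.2 and 116.8 CPM in Vehicle mice 1 to 4 and at 102.9, 86.2, 118.8 and 95 CPM in LJP mice 1 to 4. Sham values were tight, and Vehicle mice 1 and 2 stood well above Vehicle mice 3 and 4, which lay within the LJP range. Mcl1 rose by 1.29 ± 0.23 on the log2 scale from Sham to Vehicle (adjusted p = 0.00152, edgeR). Bcl2l1, which encodes BCL-XL, rose by 0.48 ± 0.11 (adjusted p = 0.00453). By contrast Bcl2, the founding anti-apoptotic gene, fell by 0.45 ± 0.13 on the log2 scale (adjusted p = 0.0158), and Bcl2l2 fell by 0.24 ± 0.08 (adjusted p = 0.0283). Without Vehicle mice 1 and 2 the log2 fold change was 0.66 for Mcl1 and 0.25 for Bcl2l1, which both passed, and the call of Bcl2l2 was lost (adjusted p = 0.0812, edgeR).

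All 3 pore-forming genes rose. Bax was read at 25.1, 27.6, 28.3 and 32.7 CPM in the Sham mice, at 55.2, 67.4, 37.0 and 40.5 CPM in the Vehicle mice and at 35.8, 32.2, 38.0 and 28.9 CPM in the LJP mice. The Vehicle range lay above the Sham range, and LJP mouse 3 exceeded Vehicle mouse 3. The log2 fold change from Sham to Vehicle was 0.82 ± 0.17 for Bax (adjusted p = 0.00337), 1.32 ± 0.22 for Bak1 (adjusted p = 0.00106) and 0.36 ± 0.11 for Bok (adjusted p = 0.0191, all edgeR). Leaving out Vehicle mice 1 and 2 gave 0.44 for Bax and 0.81 for Bak1, which both still passed. A Bax to Bcl2 ratio, a customary index of apoptotic balance, was 6.43 to 8.63 per length in the Sham mice, 27.0, 22.8, 11.9 and 13.6 in Vehicle mice 1 to 4, and 9.95, 11.2, 13.7 and 10.3 in LJP mice 1 to 4. Sham ratios lay below all others, and the Vehicle and LJP ratios overlapped through Vehicle mice 3 and 4 and LJP mouse 3.

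Of the 8 BH3-only genes, which sense stress and trigger BAX and BAK, 7 rose. Bmf, whose product is tied to the cytoskeleton in healthy cells, rose by 1.68 ± 0.28 on the log2 scale (adjusted p = 0.00104), Bcl2l11, which encodes BIM, by 1.27 ± 0.29 (adjusted p = 0.00544), and Pmaip1 (NOXA) by 1.47 ± 0.36 (adjusted p = 0.00723). Bbc3 (PUMA) rose by 0.88 ± 0.21 (adjusted p = 0.00593), Bid, the substrate of caspase-8, by 0.87 ± 0.22 (adjusted p = 0.00853), and Bad by 0.31 ± 0.10 (adjusted p = 0.032). In the fit without Vehicle mice 1 and 2 the calls of Bid (adjusted p = 0.0982), Pmaip1 (0.0651) and Bad (0.292) were lost, and Bmf at 1.07, Bcl2l11 at 0.63 and Bbc3 at 0.45 passed with smaller values. The gene span of Bad overlaps that of Gpr137 on the other strand, which had 1261 to 1794 counts. Whether counting used strand is not given in the sources used here. Bik rose by 2.51 ± 0.55 (adjusted p = 0.004) from 1 to 4 counts per Sham mouse. The exception was Hrk, a BH3-only gene expressed mainly in neurons, with 59.0, 58.0, 58.4 and 51.5 CPM in the Sham mice, 36.6, 30.7, 36.9 and 38.9 CPM in the Vehicle mice and 54.3, 46.9, 37.5 and 45.8 CPM in the LJP mice. All Vehicle values lay below all Sham values, and the LJP values spanned the gap. Hrk fell by 0.67 ± 0.11 on the log2 scale (adjusted p = 0.00104), while the summed neuronal markers were 7630 to 8252 CPM in Sham and 4127 to 6756 CPM in Vehicle mice.

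Of the 6 genes of mitochondrial release and the apoptosome 1 rose and 1 fell. Apaf1, the scaffold of the apoptosome, rose by 0.50 ± 0.17 on the log2 scale (adjusted p = 0.0365), and Cycs (cytochrome c) fell by 0.29 ± 0.09 (adjusted p = 0.0234). Both calls were lost without Vehicle mice 1 and 2 (adjusted p = 0.115 for Apaf1 and 0.118 for Cycs, edgeR). The other 4 did not pass. The log2 fold change was 0.18 ± 0.08 for Casp9, 0.23 ± 0.12 for Diablo, an antagonist of the inhibitors of apoptosis, -0.16 ± 0.10 for Aifm1 and -0.24 ± 0.12 for Parp1, a substrate of the executioner caspases (adjusted p = 0.0986 to 0.224, edgeR). Among the further caspases Casp6 rose by 1.55 ± 0.31 (adjusted p = 0.0024), and by 0.98 without Vehicle mice 1 and 2. Casp12, a caspase linked to the endoplasmic reticulum, rose by 2.35 ± 0.73 (adjusted p = 0.0223), with 209 counts in Vehicle mouse 2 and 15 to 25 in the others. Without Vehicle mice 1 and 2 its call was lost. Casp2 had a log2 fold change of 0.50 ± 0.20 (adjusted p = 0.0648). With 1 mouse left out it ran from 0.20, without Vehicle mouse 2, to 0.61, without Vehicle mouse 4. It passed in 2 of those fits (adjusted p down to 0.0303, edgeR).

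In the death receptor complex 4 of 5 genes rose. Caspase-8 starts the caspase cascade at death receptors and restrains necroptosis, and Casp8 was read at 1.79, 2.07, 2.13 and 2.33 CPM in the Sham mice, at 10.9, 25.1, 7.63 and 9.96 CPM in the Vehicle mice and at 7.21, 4.95, 9.89 and 4.79 CPM in the LJP mice. Neither ischemic group overlapped Sham, and Vehicle mouse 2 was the highest of all. Casp8 rose by 2.69 ± 0.37 on the log2 scale (adjusted p = 0.000378). Its inhibitor Cflar (c-FLIP) rose by 0.83 ± 0.19 (adjusted p = 0.0054), the adaptor Fadd by 1.11 ± 0.23 (adjusted p = 0.00291) and the kinase gene Ripk1 by 1.68 ± 0.32 (adjusted p = 0.00219). Without Vehicle mice 1 and 2 Cflar rose by 0.49 and Ripk1 by 0.85. The log2 fold change of Tradd, the adaptor of TNF receptor 1, was 0.37 ± 0.15 (adjusted p = 0.0685). The gene span of Ripk1 shares 570 bases with that of Serpinb6a on the other strand, which had 330 to 1683 counts.

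The inhibitors of apoptosis split. Birc3 (cIAP2), a target of NF-kB, was read at 3.69, 2.23, 1.86 and 1.35 CPM in the Sham mice, at 16.6, 22.6, 4.30 and 5.06 CPM in the Vehicle mice and at 4.95, 3.83, 4.29 and 3.79 CPM in the LJP mice. Vehicle mice 1 and 2 were far above the rest, and Vehicle mice 3 and 4 were close to the LJP mice. Birc3 rose by 2.42 ± 0.50 on the log2 scale from Sham to Vehicle (adjusted p = 0.00304), and by 1.04 without Vehicle mice 1 and 2 (adjusted p = 0.0142, edgeR). Its neighbour Birc2 (cIAP1, chr9:7818226-7837131), on the minus strand like Birc3 (chr9:7847468-7873205), had a log2 fold change of -0.17 ± 0.09 (adjusted p = 0.162). Xiap, a direct inhibitor of caspases, fell by 0.26 ± 0.08 (adjusted p = 0.0198).

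Both necroptosis genes rose. Ripk3, the necroptosis kinase gene (chr14:55784995-55788857), was read at 0.0576, 0.327, 0.11 and 0.259 CPM in the Sham mice, at 4.49, 9.05, 1.67 and 3.39 CPM in the Vehicle mice and at 1.23, 0.409, 2.01 and 0.947 CPM in the LJP mice. Groups did not overlap between Sham and either ischemic group. Ripk3 rose by 4.57 ± 0.67 on the log2 scale (adjusted p = 0.000492) and by 3.68 without Vehicle mice 1 and 2 (adjusted p = 0.000333). Mlkl, its effector gene (chr8:111311255-111338479), was read at 0.346, 0.327, 0.383 and 0.207 CPM in the Sham mice, at 3.67, 5.75, 0.753 and 0.754 CPM in the Vehicle mice and at 0.726, 0.306, 0.978 and 0.39 CPM in the LJP mice. Vehicle mice 1 and 2 were far above the rest, and Vehicle mice 3 and 4 lay inside the LJP range. Mlkl rose by 3.11 ± 0.69 on the log2 scale (adjusted p = 0.00432), a call that was lost without Vehicle mice 1 and 2 (log2 fold change 1.24).

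Of the inflammasome and pyroptosis genes 6 of 7 tested rose. Pycard, the common adaptor (chr7:127991373-127993867), had the smallest p of all members, with 1.61, 1.42, 1.31 and 1.71 CPM in the Sham mice, 13.5, 16.2, 11.2 and 9.85 CPM in the Vehicle mice and 8.94, 4.24, 11.7 and 4.34 CPM in the LJP mice. All Vehicle values lay above all Sham values, and among the LJP mice 1 and 3 stood above 2 and 4. Pycard rose by 3.07 ± 0.33 on the log2 scale (adjusted p = 0.000113). Casp4 lies between Casp1 and Casp12 at chr9:5308849-5336791 and was read at 0.0576, 0.109, 0 and 0.155 CPM in the Sham mice, at 2.99, 4.63, 0.86 and 1.35 CPM in the Vehicle mice and at 0.408, 0.511, 0.706 and 0.334 CPM in the LJP mice. The 3 groups did not overlap, with Sham lowest and Vehicle highest. Casp4 rose by 4.82 ± 0.69 on the log2 scale (adjusted p = 0.000441). Gsdmd, the pore of pyroptosis (chr15:75862144-75867408), was read at 1.96, 2.18, 1.86 and 2.54 CPM in the Sham mice, at 7.43, 12.3, 6.08 and 5.38 CPM in the Vehicle mice and at 5.63, 3.83, 6.08 and 3.12 CPM in the LJP mice. It rose by 1.87 ± 0.29 (adjusted p = 0.000725), and its Vehicle and LJP ranges overlapped.

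Nlrp3, the sensor of membrane damage, rose by 1.62 ± 0.30 on the log2 scale (adjusted p = 0.00166), Casp1 by 1.53 ± 0.41 (adjusted p = 0.0115) and Aim2, the sensor of cytosolic DNA, by 1.09 ± 0.31 (adjusted p = 0.0158). Without Vehicle mice 1 and 2 the log2 fold change was 1.11 for Casp1 and 0.65 for Aim2, and neither passed (adjusted p = 0.0782 and 0.104, edgeR). The gene span of Aim2, introns included, overlaps 18593 bases of that of Cadm3 on the other strand, and exons were not compared. Cadm3 had 7483 to 11690 counts against at most 196 for Aim2. If exons overlap and strand was not used, the reads of Aim2 may not be its own. Gsdme, a gasdermin cut by caspase-3, had a log2 fold change of -0.17 ± 0.15 (adjusted p = 0.38). Nlrc4, the sensor paired with NAIP proteins, had 8, 4, 4 and 10 counts in Sham mice 1 to 4, 8, 14, 9 and 9 counts in Vehicle mice 1 to 4 and 6, 7, 11 and 7 counts in LJP mice 1 to 4. The exact two-sided permutation test of log2(CPM + 0.5) over mice gave p = 0.257 for Vehicle against Sham, 0.343 for LJP against Vehicle and 0.657 for LJP against Sham, where 0.0286 is the smallest p that 4 against 4 allows.

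**Figure D3:**
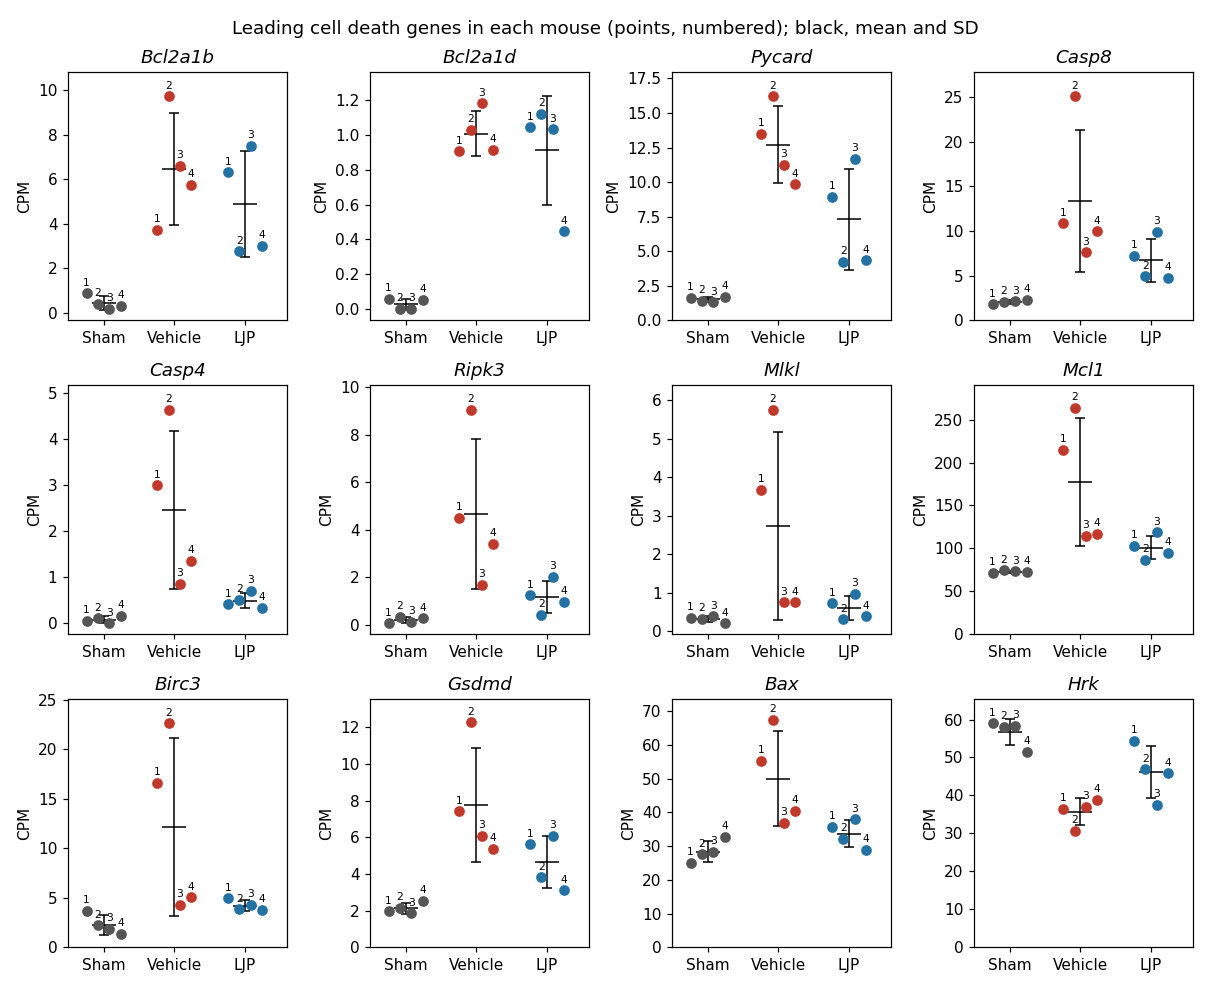
CPM of 12 members in each mouse (numbered points) by group, with black marks at the mean and bars of 1 SD. For Mlkl, Birc3 and Mcl1 Vehicle mice 1 and 2 lie far above Vehicle mice 3 and 4, while for Bcl2a1d and Pycard all 4 Vehicle values lie far above the Sham values.

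LJP against Vehicle gave no member past the threshold. With edgeR 0 of 44 passed in either direction, where 0 of 17558 genes were higher and 0.0228% were lower, and Vehicle against Sham and LJP against Vehicle share the 4 Vehicle mice. At an unadjusted p below 0.05, 21 members had lower values in LJP mice, against 17.4% of all genes, and 3 had higher values, against 12.3%. The median log2 fold change was -0.42 over the members and -0.0017 over all genes, and 35 of 44 were negative. DESeq2, which gave adjusted p-values for 41 members, called 11 lower, against 9.48% of all genes, and 1 higher, against 3.88%. The study's own thresholds, applied to the edgeR values, gave 9 lower, against 5.89% of all genes, and 0 higher, against 1.07%. Members with all LJP values above all Vehicle values numbered 0, against 5.78% of all genes.

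The lower values in LJP mice moved with which Vehicle mice were in the fit. With both Vehicle mice 1 and 2 left out, 0 members passed, against 0.0399% of all genes, and the median log2 fold change was -0.12. Without Vehicle mouse 3, 19 members passed (17 lower, 2 higher), against 21.8% of all genes in either direction. Without Vehicle mouse 4, 12 passed (11 lower, 1 higher), against 12.0%. Vehicle mouse 2 held the highest Vehicle value in 31 of 44 members (70.5%), against 36.0% of all tested genes. Macrophage and monocyte markers summed to 276 and 403.4 CPM in Vehicle mice 1 and 2, to 58.6 and 114.1 CPM in Vehicle mice 3 and 4, to 60.8, 21.8, 93.6 and 23.4 CPM in LJP mice 1 to 4 and to 12.2 to 18.2 CPM in the Sham mice. In LJP mouse 4 Ccr2 and Ly6c2 had 0 counts. The endothelial list ran from 278.2 to 1413 CPM in Vehicle, from 188.3 to 249.2 CPM in LJP and from 193.4 to 204.9 CPM in Sham mice. The part of these cells in the difference between LJP and Vehicle was not tested.

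The members with the smallest p in LJP against Vehicle were Casp4 and Ripk3. Casp4 had a mean of 0.49 CPM in LJP and 2.46 CPM in Vehicle mice and a log2 fold change of -2.33 ± 0.53 (adjusted p = 0.0678, edgeR, and 0.0037, DESeq2), with every LJP mouse below every Vehicle mouse. Without Vehicle mice 1 and 2 the value was -1.17 (adjusted p = 0.306, edgeR). Ripk3 had a log2 fold change of -2.02 ± 0.53 (adjusted p = 0.0678, edgeR, and 0.00783, DESeq2), and LJP mouse 3 at 2.01 CPM exceeded Vehicle mouse 3 at 1.67 CPM. Its partner Mlkl had -2.19 ± 0.63 (adjusted p = 0.0711, edgeR, and 0.0135, DESeq2). In the fit without Vehicle mice 1 and 2 Ripk3 was at -1.14 and Mlkl at -0.32 (adjusted p = 0.328 and 0.799, edgeR). The pair had a median of -2.10, and of -0.73 without those mice, the most negative of the 9 roles in both fits.

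Of the mitochondrial genes Mcl1 had a log2 fold change of -0.82 ± 0.23 (adjusted p = 0.0695, edgeR), Bax of -0.57 ± 0.17 (adjusted p = 0.0729) and Bid of -0.75 ± 0.22 (adjusted p = 0.0717), and DESeq2 called all 3. Leaving out Vehicle mice 1 and 2 brought Mcl1 to -0.20, Bax to -0.20 and Bid to -0.27 (adjusted p = 0.375 to 0.492, edgeR). Bid was read at 12.8, 16, 8.98 and 7.05 CPM in the Vehicle mice, at 6.17, 7.66, 6.36 and 6.51 CPM in the LJP mice and at 5.42, 6.75, 6.73 and 5.70 CPM in the Sham mice. Its LJP values lay within or near the Sham range, and LJP mouse 2 exceeded Vehicle mouse 4. Hrk went the other way, at 0.37 ± 0.11 (adjusted p = 0.0736, edgeR, and 0.0309, DESeq2). Bcl2l1, at -0.31 ± 0.11 (adjusted p = 0.0956, edgeR) and at -0.08 without Vehicle mice 1 and 2, was the only member besides Casp4 whose LJP values all lay below its Vehicle values, where 5.90% of all genes did so.

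Ripk1 was read at 20.7, 32.8, 10.7 and 10.6 CPM in the Vehicle mice, at 8.48, 8.12, 10.8 and 9.47 CPM in the LJP mice and at 5.99, 4.74, 7.39 and 5.23 CPM in the Sham mice. Vehicle mice 3 and 4 were no higher than LJP mouse 3. The log2 fold change was -1.02 ± 0.32 for Ripk1 (adjusted p = 0.0766), -1.53 ± 0.47 for Birc3 (adjusted p = 0.0775) and -1.0 ± 0.34 for Casp8 (adjusted p = 0.0931, all edgeR), and DESeq2 called all 3. With Vehicle mice 1 and 2 left out they were at -0.20, -0.15 and -0.39 (adjusted p = 0.633, 0.853 and 0.514, edgeR). BIM and BMF transcripts, Bcl2l11 at -0.91 ± 0.29 (adjusted p = 0.0796) and Bmf at -0.82 ± 0.27 (adjusted p = 0.0869), were the remaining pair that DESeq2 called, and were at -0.28 and -0.21 without those mice. Of the inflammasome genes only Casp4 was called by DESeq2: Pycard had -0.80 ± 0.29 (adjusted p = 0.107, edgeR), Gsdmd -0.74 ± 0.28 (adjusted p = 0.11), Nlrp3 -0.58 ± 0.28 (adjusted p = 0.186), Casp1 -0.33 ± 0.38 (adjusted p = 0.574) and Aim2 -0.04 ± 0.30 (adjusted p = 0.939). These 5 were at -0.53, -0.29, -0.17, 0.09 and 0.39 in that order without Vehicle mice 1 and 2, and none passed. Of the A1 copies Bcl2a1a had -0.91 ± 0.46 (adjusted p = 0.198), Bcl2a1b -0.40 ± 0.40 (adjusted p = 0.513) and Bcl2a1d -0.14 ± 0.35 (adjusted p = 0.805, all edgeR).

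**Figure D4:**
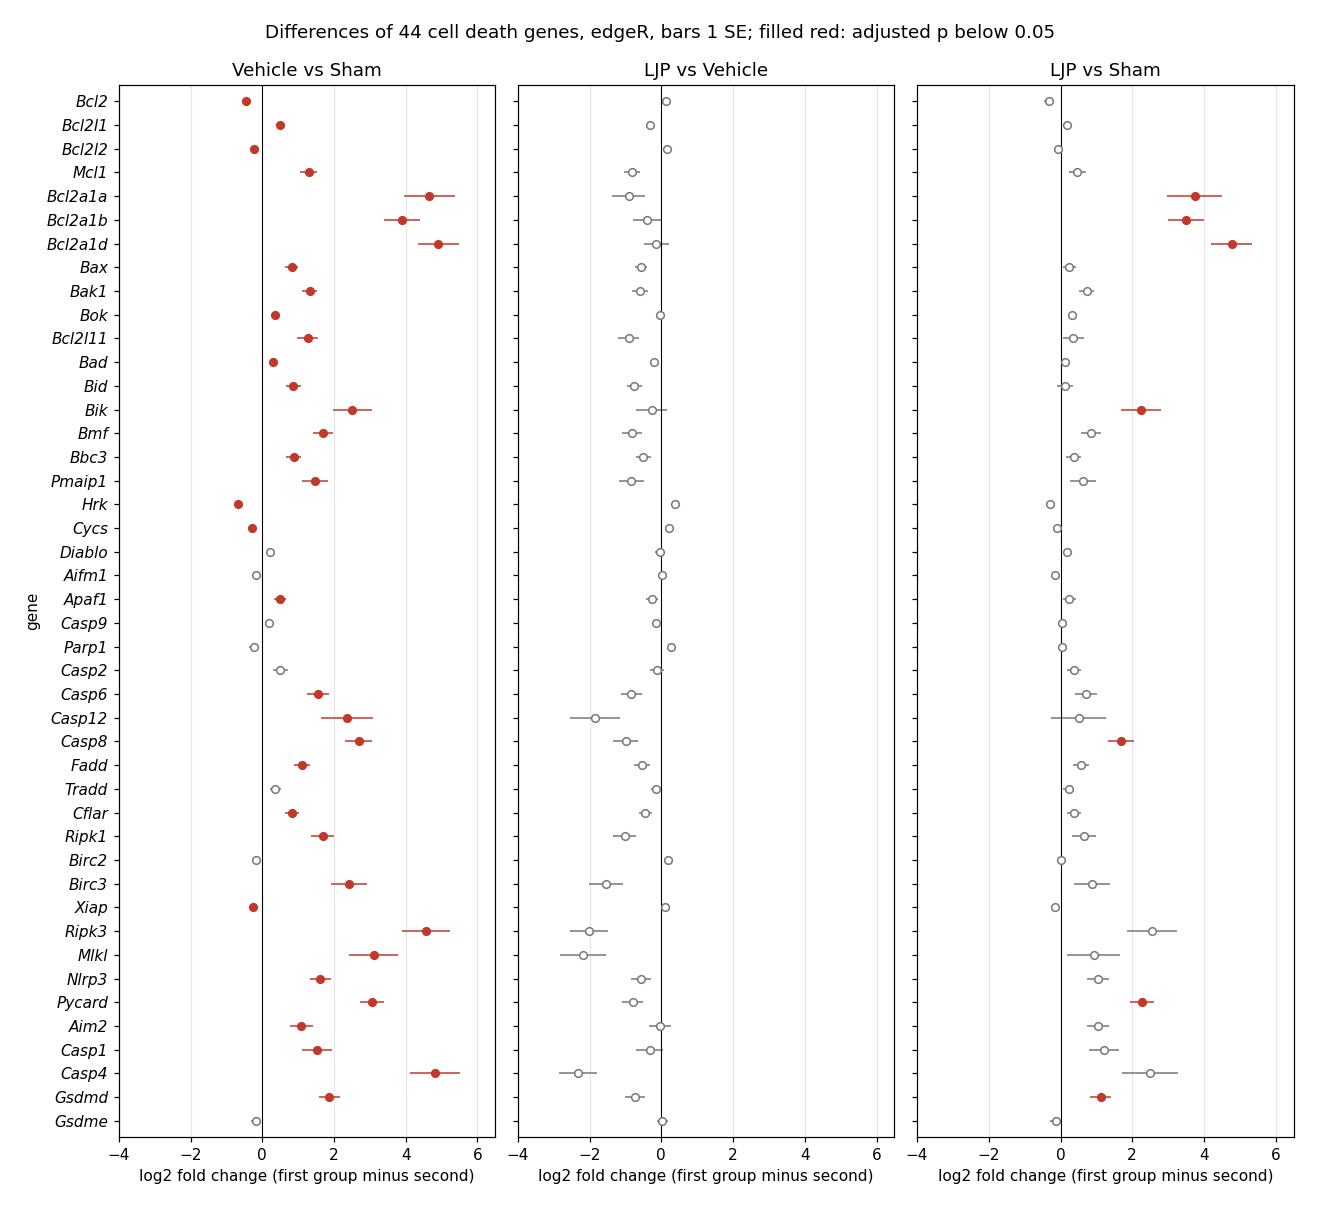
Log2 fold change (bars, 1 SE) of the 44 tested members in the 3 comparisons, filled red where the adjusted p (edgeR) was below 0.05. Most values of Vehicle against Sham are red and positive, none of LJP against Vehicle is red, and 7 of LJP against Sham are red.

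In LJP against Sham 7 members rose, where 3.85% of all genes rose, and 0 fell, where 0.900% fell, which makes 7 against 4.75% in either direction. They were Bcl2a1d, Bcl2a1b, Bcl2a1a, Pycard, Casp8, Bik and Gsdmd. The log2 fold change was 3.5 ± 0.51 for Bcl2a1b (adjusted p = 0.00208), 2.27 ± 0.33 for Pycard (adjusted p = 0.00218), 1.69 ± 0.37 for Casp8 (adjusted p = 0.0209), 2.23 ± 0.56 for Bik (adjusted p = 0.0395) and 1.13 ± 0.29 for Gsdmd (adjusted p = 0.0466, all edgeR). In the 12 fits that each left out 1 mouse, Bcl2a1d, Bcl2a1b and Pycard passed every time. Gsdmd was lost in 8 of the 12 (adjusted p up to 0.157), Bik in 7 (up to 0.123), Casp8 in 6 (up to 0.0797) and Bcl2a1a in 3 (up to 0.0537). Bcl2a1d had 72 counts over 4 LJP mice against 2 over 4 Sham mice, a ratio of 33.8 per read with an interval of 9.03 to 285 (adjusted p = 0.00104), and Bcl2a1a had 35 against 2, a ratio of 16.4 with an interval of 4.23 to 141 (adjusted p = 0.0146). Ripk3 with 2.55 ± 0.70 (adjusted p = 0.0581) and Casp4 with 2.49 ± 0.78 (adjusted p = 0.095) had larger fold changes than some that passed, and wider errors. At an unadjusted p below 0.05, 17 were higher (11.6% of all genes) and 2 lower (7.29%). The study's own thresholds, applied to the edgeR values, gave 13 higher, against 5.10%, and 0 lower, against 0.797%. DESeq2 called 0 lower, against 1.98%, and 13 higher, against 5.67% of all genes, adding Ripk3, Nlrp3, Aim2, Bak1, Casp4 and Bmf. A fit of the Sham and LJP mice alone, without the Vehicle mice, called 25, against 23.1% of all genes. The count in the fit of all 12 mice ran from 3, without Sham mouse 1 or 4, to 17, without Vehicle mouse 2 (13.5% of all genes), and was 4 without Sham mouse 2 or 3 or without LJP mouse 1 or 3, with 2.23% to 2.93% of all genes passing in these 6 fits.

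In 6 of the 7 members that rose in LJP against Sham, all but Bcl2a1d, LJP mice 1 and 3 had higher values than LJP mice 2 and 4. The share of all tested genes with this order was not counted, so whether 6 of 7 is unusual is not known. LJP mice 1 and 3 had 6.31 and 7.50 CPM of Bcl2a1b and 8.94 and 11.7 CPM of Pycard, and LJP mice 2 and 4 had 2.76 and 3.01 CPM of Bcl2a1b and 4.24 and 4.34 CPM of Pycard. Bcl2a1d was highest in LJP mouse 2, at 1.12 CPM. The same order was seen in 6 of 9 marker lists, those of microglia, macrophages and monocytes, neutrophils, astrocytes, endothelium and T lymphocytes, and the neuronal list had the opposite order. Microglial markers summed to 848 and 850.2 CPM in LJP mice 1 and 3 and to 507.5 and 513.9 CPM in LJP mice 2 and 4, against 301.2 to 306.4 CPM in Sham mice, and all 7 were detected in every mouse. Neutrophil markers summed to 22.2 and 20.1 CPM in LJP mice 1 and 3 and to 10.1 and 11 CPM in LJP mice 2 and 4. These sums were nearly all Csf3r, with 474, 192, 354 and 186 counts in LJP mice 1 to 4. Every other marker of that list had at most 7 counts in an LJP mouse. Most T lymphocyte counts were of Lck, with 29, 18, 27 and 28 counts in LJP mice 1 to 4. LJP mouse 3 held the highest LJP value in 22 of 44 members (50%), against 26.4% of all tested genes. In Vehicle mouse 1 the microglial list (412 CPM) and Bcl2a1b were at their lowest of the group, while Pycard at 13.5 CPM was above Vehicle mice 3 and 4. The part of these cell types in the values was not tested.

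**Figure D5:**
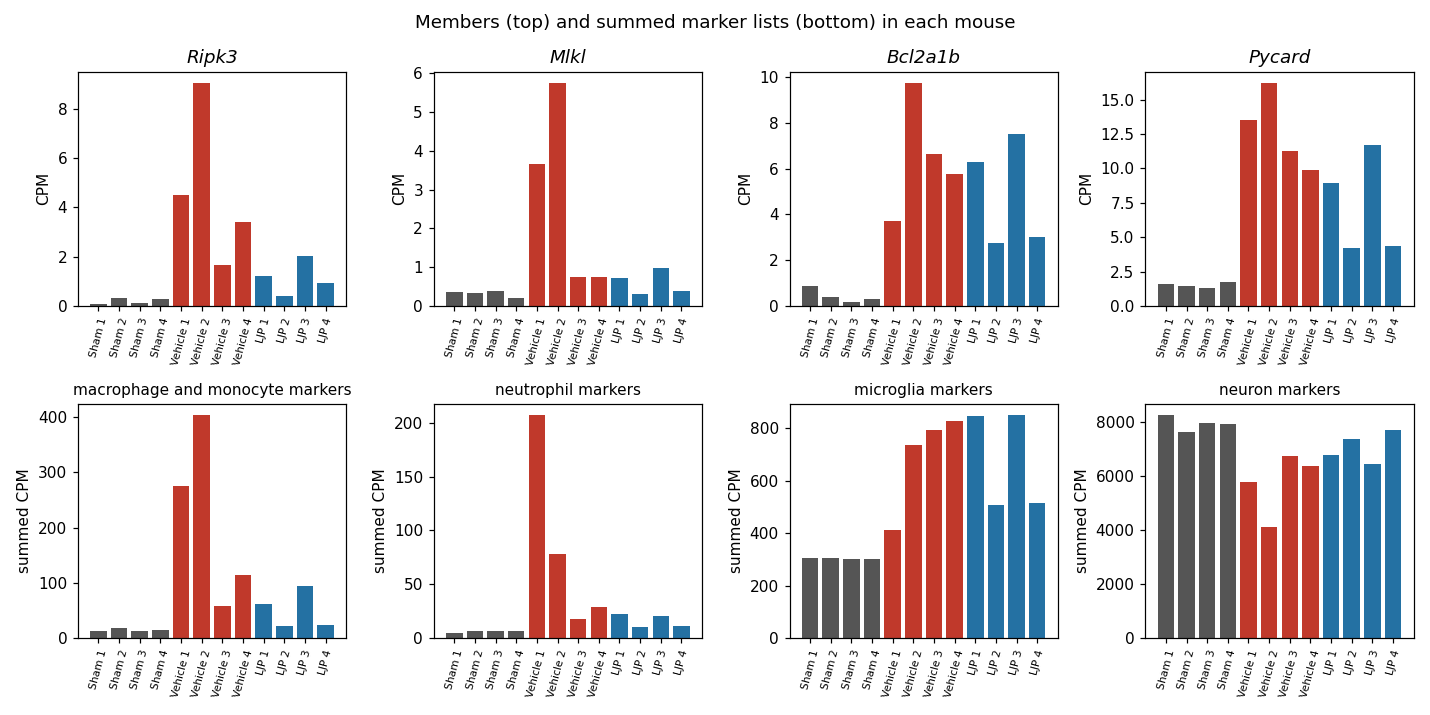
CPM of Ripk3, Mlkl, Bcl2a1b and Pycard (top) and summed CPM of 4 marker lists (bottom) in each of the 12 mice. Ripk3 and Mlkl are highest in Vehicle mice 1 and 2, as are the macrophage and neutrophil lists, and Bcl2a1b, Pycard and the microglial list are higher in LJP mice 1 and 3 than in LJP mice 2 and 4.

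A list of 55 further genes of the same pathways gave 25 of 48 tested genes higher and 4 lower in Vehicle against Sham, where 22.7% and 17.3% of all genes passed, and a median log2 fold change of 0.34. Naip2 and Naip5, which detect bacterial ligands for NLRC4, rose by 2.81 ± 0.32 and 2.28 ± 0.32 on the log2 scale (adjusted p = 0.000136 and 0.000398, edgeR). The death receptor gene Tnfrsf1a was read at 9.68, 10.8, 9.42 and 11.5 CPM in the Sham mice, at 114.8, 189.3, 49.1 and 54.7 CPM in the Vehicle mice and at 32.7, 24.7, 49.3 and 24.1 CPM in the LJP mice. It rose by 3.30 ± 0.41 (adjusted p = 0.0002), and LJP mouse 3 reached Vehicle mouse 3. Card9, an adaptor of innate immune receptors, rose by 1.65 ± 0.25 (adjusted p = 0.000586). Cyld, a deubiquitinase that acts on RIPK1, fell by 1.05 ± 0.16 on the log2 scale (adjusted p = 0.000548), from 194.4 to 234.5 CPM in Sham mice to 65.8 to 119.3 CPM in Vehicle mice, with 128.6 to 154.4 CPM in LJP mice, which overlapped neither group.

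In LJP against Vehicle 0 of these 48 genes passed, 14 were lower and 1 higher at an unadjusted p below 0.05 (17.4% and 12.3% of all genes), and the median was -0.21. The smallest p belonged to Tnfrsf1a, with a log2 fold change of -1.64 ± 0.38, Tnfrsf10b, the TRAIL receptor, with -1.98 ± 0.46, Txnip, a partner of NLRP3, with -1.83 ± 0.46, and Tnfaip3 (A20), with -0.70 ± 0.18 (adjusted p = 0.0678 for each, edgeR). Ninj1, which breaks the membrane of dying cells, had -0.98 ± 0.28 (adjusted p = 0.0699). Txnip was read at 104.8, 233.5, 29.5 and 57.8 CPM in Vehicle mice 1 to 4 and at 24.6 to 35.8 CPM in the LJP mice. Without Vehicle mice 1 and 2 the log2 fold change was -0.67 for Tnfrsf1a, -1.09 for Tnfrsf10b, -0.54 for Txnip, -0.34 for Tnfaip3 and -0.27 for Ninj1 (adjusted p = 0.214 to 0.48, edgeR). DESeq2 called 8 of the 49 it tested, all lower, against 9.48% of all genes. Without Vehicle mouse 3 edgeR called 12, against 21.8% of all genes, and without both Vehicle mice 1 and 2 it called 0. In LJP against Sham 8 were higher and 1 lower (3.85% and 0.900% of all genes), the last being Cyld at -0.60 ± 0.16 (adjusted p = 0.0453).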

How the data were processed

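Poly(A) RNA of 12 hemispheres was sequenced in paired ends. The authors deposited raw read counts by gene for each mouse in 1 table, with gene symbols, NCBI gene identifiers, positions and lengths. The submitters' processing notes name featureCounts and DESeq2 without versions, and both GRCm39 and mm10. The gene positions match GRCm38 (mm10). The aligner, the strand setting and the handling of shared reads are not given in the sources used here. Shared or antisense reads could therefore raise or lower overlapping genes and the Bcl2a1 copies. Overlaps were read from whole gene spans, introns included, and exons were not compared. The labels number the samples of a group as replicates without naming animals, so p-values measure the spread between these samples.

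The main test was that of edgeR 4.0.16 in R 4.3.3 (filterByExpr with a minimum count of 10, TMM factors, glmQLFit and glmQLFTest, 1 coefficient per group over all 12 mice). P-values were Benjamini-Hochberg adjusted over 17558 genes and called at an adjusted p below 0.05. CPM were counts per 1000000 of total times TMM factor, and RPKM divided CPM by gene length. Errors of fold changes are SE, and those of levels are SD. DESeq2 1.42.0 was an alternative. The floor is 3 counts per library, 0.135 to 0.167 CPM of the total. Nlrc4 was tested by exact permutation over mice with a pseudocount of 0.5 CPM. The fit was tested on simulated data. Promoters came from RefSeq and coding sequences from GENCODE vM21, where an open reading frame of the annotated length was taken. Figures were drawn with matplotlib 3.10.9.

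The members, the further pathway list, the marker lists and the motifs were chosen with earlier results of these data known. Values per mouse are given for the 8 members with the smallest p in each of Vehicle against Sham and LJP against Vehicle, for Nlrc4 and for members whose calls differed between tools where the text turns on them. All 45 are named, with the 5 further genes of smallest p in each of those comparisons. Alternatives were RLE factors, library size only, no filter, fits of 2 groups, a replicate block and leaving out each mouse. The thresholds of the study's methods were applied to the edgeR values as a further alternative. The fit without both Vehicle mice 1 and 2, and the alternatives for the further list, were chosen after seeing the data. No pair of mice was a duplicate library (the lowest chi-square within a group, divided by its degrees of freedom, was 2.57). Protein sequences were not used here.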

Additional observations from a re-analysis of the deposited data

Results flagged for a closer look

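In 10 of 135 sets of 4 values (45 genes in 3 groups) the highest or lowest mouse lay farther from its nearest neighbour (as a share of the group's range, on log2(CPM + 0.5)) than Dixon's 95% critical value allows, where chance gives about 6.75. The gap took 0.887 of the range for Casp12 in Vehicle mouse 2, with 8.96 CPM against 0.806 to 1.13 CPM in the other Vehicle mice. Bcl2 stood out in 2 groups, low in Vehicle mouse 1 (16.3 CPM, gap 0.882) and high in LJP mouse 1 (28.6 CPM, gap 0.86). The Bcl2a1 copies stood out 3 times, at low counts. Bcl2a1a had its 2 Sham counts in mouse 3 (gap 1) and was low in Vehicle mouse 3 (0.591 CPM, gap 0.906), and Bcl2a1d was low in LJP mouse 4 (0.445 CPM, gap 0.893). The other 4 were in the Sham group. Casp6 was low in Sham mouse 3 (1.37 CPM, gap 0.866), Hrk low in Sham mouse 4 (51.5 CPM, gap 0.878), Cflar high in Sham mouse 2 (19.9 CPM, gap 0.9) and Tradd high in Sham mouse 4 (8.44 CPM, gap 0.893).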

How the results depend on the processing

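In Vehicle against Sham the count of 36 members stayed between 26 and 36 under 8 alternatives (DESeq2 35, library size only 36 as 34 higher and 2 lower) and ran from 30 to 39 when 1 mouse was left out, while the share of all genes ran from 30.2% to 46.2%. Without both Vehicle mice 1 and 2, 10 calls were lost (Casp1, Casp12, Bcl2l2, Bad, Bid, Pmaip1, Apaf1, Mlkl, Aim2 and Cycs). In LJP against Vehicle the count of 0 became 12 with DESeq2 (13.4% of all genes) and 2 without the filter (1.96%). It was 9, all lower, under the study's thresholds on edgeR values (5.89% lower and 1.07% higher). It ran from 0 to 19 when 1 mouse was left out (0.0171% to 21.8%). In LJP against Sham the count of 7 became 13 with DESeq2 (7.65% of all genes) and 25 in the fit of those 2 groups alone (23.1%). It was 13, all higher, under the study's thresholds (5.10% higher and 0.797% lower). It ran from 3 to 17 when 1 mouse was left out (2.23% to 13.5%). For the further pathway genes LJP against Vehicle gave 8 with DESeq2 (13.4% of all genes) and 4 without the filter (1.96%). It gave 5 under the study's thresholds (5.89% lower and 1.07% higher) and 0 to 12 when 1 mouse was left out (0.0171% to 21.8%). LJP against Sham gave 21 of them in the fit of 2 groups (23.1%) and 2 to 15 when 1 mouse was left out (2.23% to 13.5%). Their Vehicle against Sham count of 29 ran from 23 to 29 when 1 mouse was left out (30.2% to 46.2% of all genes). It was 32 with DESeq2 (35.7%), 30 with RLE factors (40.1%) and 22 in the fit of 2 groups (30.5%). Under the study's thresholds it was 20 (15.3% higher and 6.39% lower). The cause was not tested. Without the filter Nlrc4 had an adjusted p of 0.508, 0.781 and 0.922 in edgeR.

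The replicate numbers did not pair the mice. Same-numbered mice had correlations of -0.322 to 0.114, 1 of 12 over 0.1, and 0 mice correlated best with their own number. The replicate block gave 34 members for Vehicle against Sham, 0 for LJP against Vehicle and 3 for LJP against Sham (34.8%, 0.0114% and 2.64% of all genes), and 25, 0 and 4 further genes.

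Without both Vehicle mice 1 and 2 the sign turned for Gsdme in Vehicle against Sham (0.0018) and, in LJP against Vehicle, for Casp1 (0.0863), Casp2 (0.17), Bcl2 (-0.0102), Tradd (0.0832), Gsdme (-0.15), Aim2 (0.39), Diablo (0.0547) and Aifm1 (-0.11), none of which had passed. Leaving out 1 mouse turned the sign in LJP against Vehicle of Aifm1 (-0.0587 to 0.0885), Aim2 (-0.30 to 0.32), Bcl2a1d (-0.25 to 0.0811), Bik (-0.54 to 0.0597), Bok (-0.11 to 0.0448), Casp2 (-0.24 to 0.17), Diablo (-0.0939 to 0.0505), Gsdme (-0.0757 to 0.12) and Tradd (-0.22 to 0.0206), and in LJP against Sham of Birc2 (-0.0372 to 0.0688) and Parp1 (-0.00666 to 0.0738).

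The absence of edgeR calls between LJP and Vehicle does not show that the groups were alike. Bcl2a1a, Bcl2a1d, Casp4, Bik and Ripk3 rest on few Sham counts, so the size of their rise is loosely bounded.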

Other observations

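Marker lists of 4 further cell types gave these summed levels over all mice. Astrocyte markers summed to 3588 to 4062 CPM in Sham, 3462 to 5443 in Vehicle and 4196 to 5473 in LJP mice. Their members moved apart, with 2 of 6 higher and 1 lower in Vehicle against Sham. Gfap had 1860 to 2909 counts in Sham, 32080 to 66402 in Vehicle and 18286 to 46499 in LJP mice. Slc1a2 had 52668 to 55557 counts in Sham, 26824 to 43721 in Vehicle and 39673 to 54118 in LJP mice. Oligodendrocyte markers summed to 3831 to 4677 CPM in Sham, 4642 to 4830 in Vehicle and 3655 to 4552 in LJP mice. Choroid plexus markers varied most within groups. They summed to 31.8, 696.4, 438.4 and 902.6 CPM in Sham mice 1 to 4 and to 21.5, 19.6, 528.8 and 484.5 in Vehicle mice 1 to 4. In LJP mice 1 to 4 they summed to 25.9, 26.7, 385.8 and 21.8 CPM. T lymphocyte markers were low in each group, at 1.14 to 2.48 CPM in Sham, 1.18 to 2.62 in Vehicle and 1.28 to 2.06 in LJP mice.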
